A study of Mus musculus with 36 samples.

Results

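CD11c-positive microglia in which no Cst7 transcript was counted make up 276 of the 949 CD11c-positive cells of the series. They were chosen as cell barcodes from libraries titled CD11c-positive, of cortex or hippocampus, with at least 200 detected genes and 0 counts of Cst7. The other 673 CD11c-positive cells, each with 1 count or more of Cst7, are called Cst7-detected below, and the whole series holds 2657 cells that passed the same gene minimum. Cst7 (ENSMUSG00000068129) lies on chromosome 2 from 150570415 to 150578944 on the plus strand of GRCm38, and it encodes cystatin F, an inhibitor of lysosomal cathepsins. Because the Cst7 count itself defined the cells, it is not tested between the classes below. Only the share of cells without a count is compared between regions.

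The study profiled single microglia of male mice aged 6 months by a Smart-seq2 protocol, which amplifies cDNA of one sorted cell per well. The mice are titled APP, an amyloid-depositing transgenic strain, or WT, and all CD11c-positive libraries are titled APP. Cells were freed mechanically in the cold and gated as living, nucleated, CD11b-high and CD45-intermediate, then divided by surface CD11c, the integrin alpha X protein encoded by Itgax. The CD11c-positive cells come from 7 replicates, cortex 1, 2, 3 and 4 and hippocampus 1-2, 2-3 and 4, and the CD11c-negative APP cells, 880 in all, come from cortex 1 to 4 and hippocampus 1 to 4. The groups have limits as a model. The numbers 1-2 and 2-3 may be pools that share an animal, and cortex and hippocampus of one number may come from the same animal, so the 7 replicates may not all be independent and p-values measure the spread between these samples. The genotype tag also differs from the title in 17 of the 36 libraries of the series, and groups here follow the titles. Of the 13 CD11c-positive libraries, only the 6 of cortex 1, 2 and 4 carry the transgenic tag. Of the CD11c-negative APP libraries, those of cortex 3 and 4 and of hippocampus 1, 2 and 4 carry it. In hippocampus the tag thus differs along with the gate except in CD11c-negative replicate 3. The titles also carry a set number after the gate, whose meaning the labels do not give. In cortex both gates of a replicate share it, while in hippocampus no set number holds both gates. A hippocampal difference between the gates thus cannot be told apart from the set.

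Microglia in the resting brain hold a homeostatic set of surface genes, among them Tmem119 and the purinergic receptor P2ry12. Near amyloid deposits they take on a state known as disease-associated microglia, or DAM, in which homeostatic genes fall and genes of lipid handling, lysosomes and secreted factors rise, with dependence on the receptor Trem2 and its adaptor Tyrobp. Cst7 and Itgax are both widely used as markers of that state.

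The 276 cells carried the microglial label in their transcripts. At least 5 counts of the 10 microglia markers were present in 269 of them. Summed over each replicate, these markers made up 4626 to 9568 CPM (counts scaled to a common library size; median 6218) in Cst7-zero cells, 4811 to 8704 (median 5848) in Cst7-detected cells and 9585 to 17024 (median 13637) in CD11c-negative APP cells. Among markers of blood-derived cells, the neutrophil genes S100a8, Ngp and Mmp8 had 0 counts in Cst7-zero cells, monocyte markers summed to 0 to 64.6 CPM (5 of 8 listed genes are in the files; Vcan and Ms4a4c at 0), and dendritic cell markers to 0 to 72.2 CPM (7 of 7; Xcr1 and Clec9a at 0). Border-associated macrophage markers summed to 0 to 238 CPM (6 of 8; Cd163 at 0), against 0 to 109 CPM in Cst7-detected cells, and lymphocyte markers to 0 to 18.5 CPM (4 of 10; Trbc2 and Nkg7 at 0). The macrophage medians were 43.5 CPM in Cst7-zero, 6.80 CPM in Cst7-detected and 0.436 CPM in CD11c-negative cells. At least 5 counts of these markers were present in 6 Cst7-zero and 11 Cst7-detected cells. Monocyte and dendritic cell medians were lower in Cst7-zero (3.52 and 7.90 CPM) than in Cst7-detected cells (31.3 and 22.1 CPM). Red blood cell markers reached 102 CPM in Cst7-zero and 19.7 CPM in Cst7-detected cells (medians 0 CPM in both), and endothelial markers 198 and 47.0 CPM (medians 11.8 and 23.3 CPM). Neuronal markers had a median of 669 CPM in Cst7-zero, 348 CPM in Cst7-detected and 155 CPM in CD11c-negative cells, with highest sums of 959, 1924 and 791 CPM. The astrocytic medians were 615, 863 and 411 CPM and the oligodendrocytic ones 285, 324 and 137 CPM in the same order. The part of these other cell types' RNA in the results below was not tested apart from leaving out cells in which such markers held over 0.5% of counts.

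Cst7-zero cells were found in every CD11c-positive replicate. In cortex they were 65 of 154 cells in replicate 1 (42.2%), 45 of 143 in replicate 2 (31.5%), 41 of 147 in replicate 3 (27.9%) and 45 of 143 in replicate 4 (31.5%). In hippocampus they were 18 of 147 cells in replicate 1-2 (12.2%), 45 of 145 in replicate 2-3 (31.0%) and 17 of 70 in replicate 4 (24.3%). The mean share was 28.7% ± 9.08 (SD, n = 7), and the highest share, in cortex 1, was over 3 times the lowest, in hippocampus 1-2. The regional means, 33.3% ± 6.20 in cortex (n = 4) and 22.5% ± 9.52 in hippocampus (n = 3), differed by -10.7 percentage points, which did not pass an exact two-sided permutation test (p = 0.114, where 0.0571 is the smallest p that 4 against 3 replicates allow).

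The share depended on how deeply a cell was sequenced. Among the CD11c-positive cells ordered by total counts, Cst7 was without a count in 41.8% of the 316 shallowest, 30.1% of the next 316 and 15.5% of the 317 deepest. When every cell was thinned at random to 5000 counts, the share without Cst7 rose to 43.1%, with cortex at 43.5% and hippocampus at 42.6%. The regional difference was smaller at equal depth, -5.86 percentage points at 10000 counts and -0.835 at 5000 (exact permutation p = 0.857 for the latter), and it turned to 5.22 at 2000. If 5 counts are asked for before Cst7 is called detected, 52.3% of cells fall below, 48.0% in cortex and 58.1% in hippocampus, so that the regional order turns (difference 10.1 points, exact permutation p = 0.343).

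**Figure D1:**
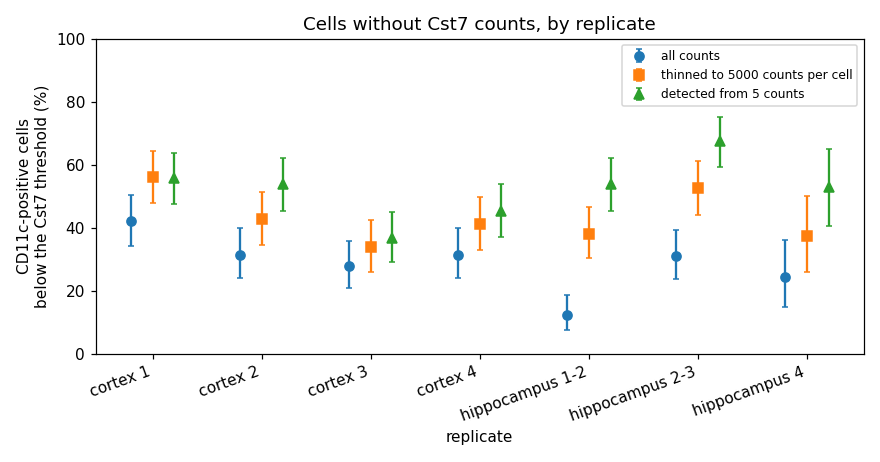
Percent of CD11c-positive cells below the Cst7 threshold in each of the 7 replicates, with all counts (circles), after thinning to 5000 counts per cell (squares) and with 5 counts as the threshold (triangles); bars are 95% exact binomial intervals, which cover counting error only. With all counts hippocampus 1-2 is lowest at 12.2% and cortex 1 highest at 42.2%.

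Just outside the threshold stood 119 cells with 1 count of Cst7, and 101 more had 2 to 4. The cells with 1 count had a median of 18042 counts and 980 genes, against 15734 counts and 934 genes in the 276 cells with none. A further 104 cells had 5 to 19 counts and 349 had 20 or more. Cells of 1 to 4 counts formed 23.2% of CD11c-positive cells, 14.7% in cortex (86 of 587) and 37.0% in hippocampus (134 of 362). For comparison, 3.75% of CD11c-negative APP cells (33 of 880, median depth 18020.5 counts against 20199 in CD11c-positive cells) had 1 to 4 Cst7 counts, and 22 of the 74 cells of CD11c-negative cortex 4 (29.7%) had at least 1, of which 1 cell had 5 or more. Among Cst7-detected cells the median Cst7 count was 30 in cortex 1, 19.5 in cortex 2, 27.5 in cortex 3 and 28 in cortex 4, but 5 in hippocampus 1-2, 4 in hippocampus 2-3 and 14 in hippocampus 4.

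Cst7-zero cells were smaller libraries than Cst7-detected cells of the same replicates. The median count per cell averaged 15610 ± 2706 over replicates against 22603 ± 3227 (SD, n = 7), and median detected genes averaged 973 ± 136 against 1192 ± 192. At an equal 5000 counts they still had fewer genes, 732 ± 97.7 against 839 ± 128.5, lower in 7 of 7 replicates (two-sided exact sign-flip permutation test, p = 0.0156, the smallest that 7 pairs allow). The median mitochondrial share, 2.15% against 2.21%, did not differ beyond its spread (exact p = 0.625), nor did the share of cells with over 0.5% of counts in markers of other cell types, 6.87% against 9.33% (exact p = 0.469). The number of detected genes moves with the class in every replicate, and its part in the gene comparisons that follow was not tested beyond thinning.

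How the Cst7-zero cells differ from their Cst7-detected neighbours was asked by summing counts over the cells of each class in each replicate and testing the 7 pairs of sums. No gene of 7634 passed an adjusted p of 0.05 in either direction (0.0% called; edgeR's quasi-likelihood test, smallest Benjamini-Hochberg adjusted p 0.777). At an unadjusted p under 0.05, 420 genes were lower in Cst7-zero cells (5.5%) and 60 were higher (0.786%). Another tool, DESeq2, called 36 genes higher and 143 lower, while limma-voom called 0 higher and 2 lower. No gene passed for a class difference that depended on region (0.0% of 7634; edgeR's quasi-likelihood test), 400 were under an unadjusted p of 0.05, and DESeq2 called 49. The Cst7-zero sums were the shallower ones, at 253138 to 1621359 counts, and the median log2 difference over all tested genes was -0.47, and -0.14 over the 1819 genes of at least 100 CPM, so a list's median is to be read against those (-0.36 over all genes with RLE size factors). In such sums fewer cells with a transcript and less RNA per cell cannot be told apart. The difference was negative for 5691 of the 7634 genes and for 1182 of the 1819. Lower in 7 of 7 replicates were 210 and 40 genes, and counts of lower list members are to be read against these numbers. The values below are CPM of these sums on a common scaling of all 22 sums, and a log2 difference is the fitted value of Cst7-zero over Cst7-detected.

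Homeostatic genes showed small differences in both directions between the classes, none past the threshold. Tmem119, a microglial surface protein, was at 426, 279.9, 376 and 312 CPM in Cst7-zero cells of cortex 1 to 4 and at 755, 522 and 753 CPM in hippocampus 1-2, 2-3 and 4. In Cst7-detected cells it was at 388, 492.9, 426 and 406 CPM in cortex, and 555, 512 and 442 CPM in hippocampus. The ranges overlap, Cst7-zero cells being higher in 4 of 7 replicates, with means of 489 ± 197 and 460.1 ± 61.1 CPM (SD, n = 7). The fitted log2 difference was 0.08 ± 0.22 (SE; adjusted p = 0.956, edgeR), and it changed sign with cortex alone (-0.24).

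P2ry12, the ADP receptor of resting microglia, likewise averaged 996 ± 301 CPM in Cst7-zero and 907 ± 267 CPM in Cst7-detected cells (log2 difference 0.20 ± 0.14, adjusted p = 0.813). The fractalkine receptor Cx3cr1 was at 843 ± 379 and 656 ± 224 CPM, higher in Cst7-zero cells in 6 of 7 replicates (log2 0.38 ± 0.16, adjusted p = 0.777). Selplg, a selectin ligand, had a log2 difference of 0.19 ± 0.11. The Fc receptor-like gene Fcrls stood on the other side, at 672 ± 175 and 981 ± 121 CPM, lower in 6 of 7 (log2 -0.50 ± 0.15). Cst3, the abundant microglial cystatin, was at 7245 ± 1263 and 6844 ± 739 CPM (log2 0.15 ± 0.08). Of the 23 homeostatic genes 21 were tested, 0 passed, 1 was higher and 1 lower at an unadjusted p under 0.05, and their median log2 difference was 0.08.

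Cells without Cst7 carried transcripts of other genes of the disease-associated state. Apoe, the main apolipoprotein of this state, was at 4869, 4696, 3572 and 5519 CPM in Cst7-zero cells of cortex 1 to 4 and at 3996, 4839 and 2236 CPM in those of hippocampus. In Cst7-detected cells it was at 5102, 5217, 4144 and 3913 CPM in cortex, and 4523, 4985 and 4535 CPM in hippocampus. The classes overlap, with hippocampus 4 the low one among Cst7-zero sums. The log2 difference was -0.09 ± 0.12 (adjusted p = 0.904), and its sign turned under other scalings (0.03 with RLE size factors). Lipoprotein lipase, Lpl, was at 694 ± 130 and 744 ± 253 CPM, and the lectin receptor Clec7a at 255 ± 135 and 258 ± 74.8 CPM, so that the levels of both lay within the replicate spread.

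Other members were lower in most replicates without passing the adjusted threshold. Ccl6, a chemokine, was at 1331, 938, 784 and 839.6 CPM in Cst7-zero cells of cortex, with 442, 1282 and 465.8 CPM in hippocampus. In Cst7-detected cells it was at 1666, 1609, 1085 and 994 CPM in cortex, and 1036, 1451 and 1209 CPM in hippocampus. It was thus lower in every replicate, although the ranges overlap. The log2 difference was -0.58 ± 0.16 (adjusted p = 0.777, edgeR).

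Insulin-like growth factor Igf1 was at 153, 221, 49.9 and 289.8 CPM in Cst7-zero cells of cortex, with 406, 119 and 44.7 CPM in hippocampus, against 367, 317, 222 and 353 CPM and 316, 331 and 268 CPM in Cst7-detected cells. It was lower in 6 of 7 replicates, hippocampus 1-2 being the exception (log2 -1.03 ± 0.37). Itgax, the gene of the sorted protein, was at 22.1, 99.6, 164 and 120.1 CPM in cortex, with 29.3, 1.56 and 25.5 CPM in hippocampus. In Cst7-detected cells Itgax was at 295, 79.4, 188 and 175 CPM and at 91.8, 101 and 71.8 CPM, so Cst7-zero cells were lower in 6 of 7 replicates (log2 -1.53 ± 0.73, adjusted p = 0.777). Csf1, a microglial growth factor, had a log2 difference of -1.80 ± 0.92. Of the 19 listed DAM genes of low baseline (Cst7 left out) 16 were tested, 0 passed, 3 were lower and 0 higher at an unadjusted p under 0.05, 15 of 16 had a negative difference, and the median was -0.35.

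Genes of the receptor complex and of lysosomes were mostly lower too, again without passing. Trem2, the lipid-sensing receptor, was at 1345, 1568, 971 and 1568 CPM in Cst7-zero cells of cortex, with 1875, 1678 and 1097 CPM in hippocampus, against 2102, 1842, 1526 and 1435 CPM and 1895, 2157 and 1811 CPM in Cst7-detected cells. Only cortex 4 ran the other way (log2 -0.28 ± 0.12). Its adaptor Tyrobp was at 1299 ± 351 and 2004 ± 270.3 CPM (log2 -0.58 ± 0.17), lower in 6 of 7 replicates. Cd68, a lysosomal membrane protein of phagocytes, was at 1482 ± 261 and 1929 ± 233 CPM (log2 -0.32 ± 0.11) and lower in 7 of 7. The granulin precursor Grn, a lysosomal regulator, was at 580.3 ± 109 and 894 ± 173 CPM (log2 -0.54 ± 0.17) and also lower in 7 of 7.

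Lysozyme Lyz2 (log2 -0.49 ± 0.19), the tetraspanins Cd9 (-0.25 ± 0.11) and Cd63 (-0.25 ± 0.12), the surface glycoprotein Cd52 (-0.56 ± 0.22) and the sterol-binding Npc2 (-0.47 ± 0.19) were each lower in 6 of 7 replicates. So were the cathepsins Ctsz (-0.25 ± 0.09) and Ctsd (-0.17 ± 0.09), lysosomal proteases, and the hexosaminidase subunit Hexa (-0.52 ± 0.15). Every one of these had an adjusted p of 0.777. All 20 genes of the broader DAM list had a negative difference, 8 of them at an unadjusted p under 0.05, with a median of -0.28. Of 25 lysosomal genes 20 were negative, 5 at an unadjusted p under 0.05, with a median of -0.32. The 14 tested cystatins and cathepsins had a median of -0.13, with 8 lower and 6 higher. These medians lie above the -0.47 of all genes tested, and those of the 2 longer lists lie below the -0.14 of genes of at least 100 CPM. A negative difference was also the commoner direction elsewhere, in 5691 of all 7634 genes and 1182 of the 1819 of at least 100 CPM.

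The remaining groups gave 0 genes past the threshold as well. The 14 tested lipid-handling genes had a median log2 difference of -0.21, the 14 interferon-response genes -0.90, the 10 MHC class I genes -0.29, the 10 inflammatory genes -0.54 and the 10 immediate early genes -0.47. The 9 cholesterol-synthesis genes were all on the lower side, with a median of -1.84 and 3 at an unadjusted p under 0.05, and the 11 cell-cycle genes had a median of -2.14 with 1. Most of these 20 genes had under 100 CPM. The 24 respiratory-chain genes had a median of -0.41, the 16 glycolysis and hypoxia genes -0.29 with 2 higher at an unadjusted p under 0.05, and the 85 ribosomal protein genes -0.24 with 4 lower. Among 9 MHC class II genes the median was 0.16. H2-Aa, an antigen-presenting chain, averaged 131 ± 91.3 CPM in Cst7-zero and 65.1 ± 138 CPM in Cst7-detected cells and was higher in Cst7-zero cells in 5 of 7 replicates (log2 3.93 ± 1.13, adjusted p = 0.777, edgeR). At least 5 counts of it were present in only 8 of the 276 Cst7-zero and 11 of the 673 Cst7-detected cells, with 559 and 755 counts in all. The largest cell of each class held 147 and 199 of these counts. The fitted difference is larger than the ratio of the means.

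Of the genes of smallest p on each side, none was on the homeostatic or DAM lists. Higher in Cst7-zero cells, none past the threshold, were the zinc finger gene Zfp691 (2283 ± 605 against 1634 ± 383.5 CPM, log2 0.55 ± 0.11), the splicing factor Srsf2 (log2 0.35 ± 0.08, higher in 7 of 7 replicates), the nuclear long non-coding RNA Malat1 (0.32 ± 0.08), the tropomyosin Tpm3 (0.44 ± 0.11) and the splicing-related Rsrp1 (0.78 ± 0.20). Lower were the synaptogyrin Syngr1, at 1405 ± 491 against 2344 ± 215 CPM and lower in 7 of 7 replicates (log2 -0.74 ± 0.16), and 4 genes almost without counts in Cst7-zero cells: Efna5 (9 counts against 1794), Thap7 (4 against 495), Tmem154 (7 against 677) and Nkapd1 (15 against 386). Among the genes given here with a log2 difference, DESeq2 called Zfp691, Srsf2, Malat1, Tpm3, Rsrp1, Cst3 and H2-Aa as higher and Syngr1 as lower.

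Each cell thinned to 5000 counts gives a second view that does not weight deep cells more. For 28 genes the percent of cells with a count was compared over the 7 replicates, with 11 Cst7-zero and 14 Cst7-detected cells left out as too shallow. Trem2 was counted in 70.8%, 62.8%, 75.0% and 70.5% of Cst7-zero cells of cortex 1 to 4, and in 88.9%, 64.3% and 82.4% of those of hippocampus 1-2, 2-3 and 4. In Cst7-detected cells the Trem2 share was 85.2%, 89.5%, 90.3% and 85.6% in cortex and 90.7%, 89.7% and 96.0% in hippocampus. Every replicate was lower without Cst7, with means of 73.5% ± 9.43 and 89.6% ± 3.61, while CD11c-negative cells were at 51.9%.

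At this depth Lyz2 gave the widest gap of the 28 genes. It was counted in 38.5%, 44.2%, 30.6% and 45.5% of Cst7-zero cells of cortex and in 55.6%, 31.0% and 64.7% of those of hippocampus. In Cst7-detected cells it was counted in 55.7%, 63.2%, 64.1% and 53.6% in cortex and in 65.1%, 59.8% and 74.0% in hippocampus. The means were 44.3% ± 12.6 and 62.2% ± 6.76, both far above the 7.52% of CD11c-negative cells.

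In all, 9 of 28 genes were lower in 7 of 7 replicates and passed (each p = 0.0156 in the two-sided exact sign-flip permutation test, adjusted over the 28 to 0.0486). Besides Trem2 and Lyz2 these included Ccl6 (52.0% against 66.8%), Cd63 (71.8% against 86.3%), Cd9 (73.8% against 85.0%), Ctsz (88.2% against 96.7%), Csf1 (6.25% against 11.8%) and Itgax (6.65% against 14%). None was higher. Among 3754 genes with a count in at least 5% of cells, 6.26% were lower in 7 of 7 replicates and 0.213% higher, so a lower share was also the commoner direction elsewhere. Among the 534 genes with a count in at least 30% of cells, 12% were lower in 7 of 7. With 7 pairs a call needs at least 9 of the 28 genes at the smallest p. The calls thus stand at the limit of the design. The 28 genes were also chosen with earlier results of these data known, so the adjusted p holds for that list alone. At 2000 counts, at 10000 and without thinning, 6, 5 and 8 genes reached that p and 0 passed (smallest adjusted p 0.0729, 0.0875 and 0.0547), while all 9 genes kept a lower mean share. The difference for Lyz2 was -18.9, -16.8 and -18.6 percentage points at these depths, that for Ccl6 -20.2, -16.3 and -17.2, and that for Trem2 -17.9, -9.61 and -13.8.

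Tmem119 did not follow. It was counted in 40.9% ± 17.6 of Cst7-zero and 41.4% ± 10.6 of Cst7-detected cells (exact sign-flip p = 0.922), against 76.0% of CD11c-negative cells. Sema4b, a semaphorin of resting microglia, was counted in 16.9% and 13.3% against 55.6%, Apoe in 95.8% and 98.3% against 25.7%, and Lpl in 34.5% and 44.5% against 1.95%. For each of these 4 genes the Cst7-zero mean lay nearer to the Cst7-detected than to the CD11c-negative mean. P2ry12 differed from Tmem119, with a lower share in Cst7-zero than in Cst7-detected cells in every replicate except cortex 4 (65.9% against 62.9%). Its difference ran from -8.81 to -4.83 percentage points over left-out replicates. It did not pass, and its sign turned at the lowest depth (0.106 points).

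**Figure D2:**
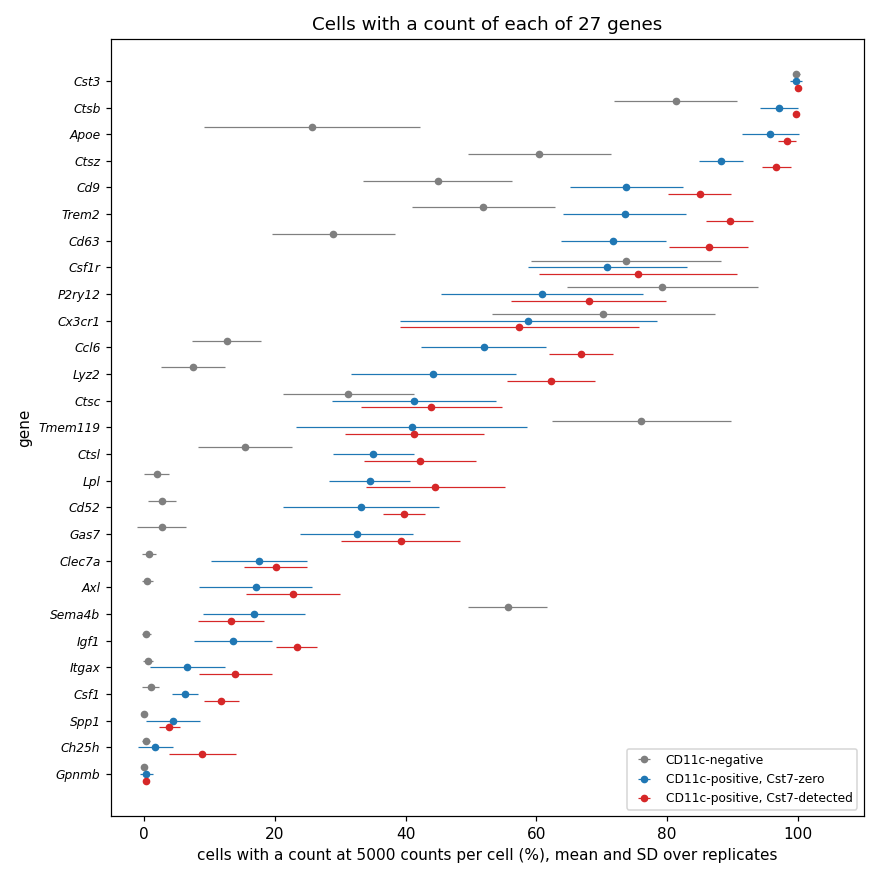
Percent of cells with at least 1 count of each of 27 of the 28 genes after thinning to 5000 counts per cell; points are means over replicates and bars the SD, for 8 CD11c-negative, 7 Cst7-zero and 7 Cst7-detected replicates. Cst7-zero cells lie near Cst7-detected cells for Tmem119 (40.9% and 41.4%) and between the other groups for Trem2 (73.5%, with 51.9% and 89.6%).

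Single cells were also described by how many DAM genes of low baseline they held. Of the 19 genes, Cst7-zero cells had on average 3.78, 4.58, 4.64 and 4.23 per cell in cortex 1 to 4 and 4.17, 3.62 and 4.35 in hippocampus. Cst7-detected cells had 4.42, 5.22, 6.11 and 5.28 in cortex and 5.33, 5.25 and 5.66 in hippocampus, more than the Cst7-zero cells of their own replicate in 7 of 7. The 10 microglia markers were also fewer per Cst7-zero cell in 7 of 7 replicates, at a mean of 4.91 against 5.33, beside the lower number of detected genes at this depth. For the DAM genes the means were 4.2 ± 0.38 and 5.32 ± 0.51 (SD, n = 7), and CD11c-negative cells had 1.02 ± 0.34 (n = 8), with at most 5 genes in any cell. At least 3 of the 19 genes were counted in 80.4% of Cst7-zero, 93.6% of Cst7-detected and 6.36% of CD11c-negative cells.

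**Figure D3:**
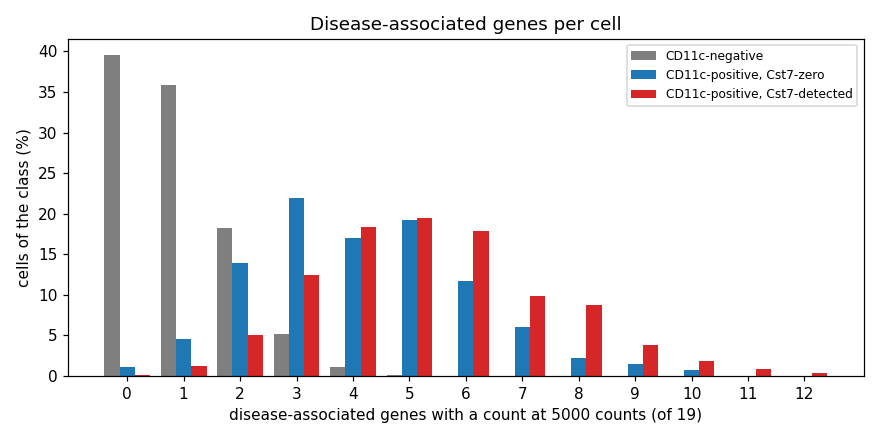
Distribution of the number of disease-associated genes (of 19, Cst7 left out) with a count at 5000 counts per cell, as percent of 849 CD11c-negative, 265 Cst7-zero and 659 Cst7-detected cells. Cst7-zero cells are spread around a mean of 4.2, while 39.6% of CD11c-negative cells have none.

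The other 52 of 265 Cst7-zero cells, with 0 to 2 of these genes, came from every replicate: 16, 3, 7 and 8 from cortex 1 to 4 and 5, 12 and 1 from hippocampus 1-2, 2-3 and 4. Some of their other genes had shares near those of CD11c-negative cells and some did not. Trem2 was counted in 55.8% of them (95% exact binomial interval 41.3 to 69.5%) against 51.2% of CD11c-negative cells, and Cd9 in 42.3% (28.7 to 56.8%) against 42.9%. Tmem119 was counted in 34.6% (22 to 49.1%) against 75.3%. Sema4b was counted in 21.2% (11.1 to 34.7%) against 55.1%, and Cd63 in 65.4% (50.9 to 78.0%) against 26.7%. Lyz2 was counted in 26.9% against 6.12%. These intervals cover counting error within pooled cells only, and the cells were chosen by the genes they lack, so no test is given. They were not shallower, with a median of 18012.5 counts against 16049 in the other 213.

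The cells were also described along their Cst7 count. In cells with 0, 1, 2 to 4, 5 to 19 and at least 20 Cst7 counts, all thinned to 5000 counts, the mean number of DAM genes was 4.14, 4.69, 5.01, 5.37 and 5.60. Lyz2 was counted in 41.1%, 51.7%, 53.6%, 67.0% and 65.6% of these cells, and Trem2 in 70.9%, 83.6%, 90.7%, 90.7% and 90.3%. Tmem119 was counted in 35.8%, 40.5%, 43.3%, 42.3% and 42.1%. P2ry12 was counted in 55.8%, 67.2%, 66.0%, 68.0% and 67.6%. Cells of 1 count thus stood between those with 0 and those with 2 to 4 for Trem2, Lyz2 and Tmem119, though not for P2ry12. Cells with 0 had the lowest share of each of these genes, and Tmem119 kept within 8 percentage points. These are descriptions over pooled cells, in which replicates take unequal shares of each step.

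The cells were then set against CD11c-negative APP cells of the same region, which asks how far a CD11c-positive cell without Cst7 is from the other sorted gate. Of 11144 genes tested, 13 were higher (0.117%) and 39 lower (0.35%) in Cst7-zero cells in cortex, and 12 were higher (0.108%) and 13 lower (0.117%) in hippocampus (edgeR's quasi-likelihood test, adjusted p under 0.05). Called in both regions were Apoe, Igf1 and Cd63 as higher and Tmem119 and Selplg as lower. The count of calls varied widely with the tool: DESeq2 gave 129 higher and 183 lower in cortex and 142 and 425 in hippocampus. With 1 sum left out in turn it ran from 6 to 20 higher and 16 to 71 lower in cortex, and from 4 to 15 and 1 to 34 in hippocampus. Only 3 hippocampal replicates, 2 of them with 17 and 18 Cst7-zero cells, stand behind those values.

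Apoe rose in both regions. In CD11c-negative cells it was at 387, 269, 273 and 742 CPM in cortex 1 to 4 and at 459.9, 252, 365 and 67.4 CPM in hippocampus 1 to 4. All Cst7-zero sums, from 2236 to 5519 CPM, lay above all of these. The log2 difference was 3.40 ± 0.46 in cortex (adjusted p = 0.00156) and 3.64 ± 0.48 in hippocampus (adjusted p = 0.0013), and no left-out sum ended either call.

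Lyz2 was at 66.7, 56.2, 68.1 and 65.4 CPM in CD11c-negative cells of cortex and at 899, 857, 330.0 and 1236 CPM in Cst7-zero cells. The groups do not overlap and the log2 difference was 3.63 ± 0.49 (adjusted p = 0.00156). In hippocampus CD11c-negative cells had 81.1, 172, 75.3 and 328 CPM and Cst7-zero cells 811, 675 and 756 CPM, again apart, but the difference of 2.13 ± 0.48 did not pass (adjusted p = 0.0848). Ccl6 rose in cortex from 157 ± 70.1 to 973 ± 247 CPM (log2 2.56 ± 0.43, adjusted p = 0.00675) and was at 256 ± 84.8 and 730.1 ± 478 CPM in hippocampus (log2 1.47 ± 0.44, adjusted p = 0.185). Npc2, which carries cholesterol out of the lysosome, rose in cortex from 267 ± 93.1 to 1025 ± 241 CPM (log2 1.88 ± 0.31, adjusted p = 0.00556), with 0.91 ± 0.32 in hippocampus (adjusted p = 0.249).

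Cd63, a tetraspanin of late endosomes, rose in cortex from 566 ± 124 to 1928 ± 429 CPM (log2 1.69 ± 0.25, adjusted p = 0.00225) and in hippocampus from 602 ± 81.4 to 1634 ± 490.4 CPM (log2 1.38 ± 0.26, adjusted p = 0.032). Leaving out 1 of 7 of the 15 sums in turn ended the hippocampal call, with adjusted p up to 0.11, and so did thinning to 5000 counts (adjusted p = 0.0507). Cd63 has a near-identical processed copy, Cd63-ps, which was counted at 594 and 202.5 CPM in cortex, so its reads may be split between them. The cathepsin Ctsb rose in cortex from 2005 ± 368 to 4234 ± 637 CPM (log2 1.01 ± 0.18, adjusted p = 0.0133, and 0.0592 without Cst7-zero cortex 2). Its hippocampal levels, on a separate scaling of sums split further by Cst7 count, overlapped. They were 2781 ± 751 CPM in CD11c-negative and 3074 ± 207 CPM in Cst7-zero cells.

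Igf1 was nearly absent from CD11c-negative cells. It had 8 counts in all cortical and 1 count in all hippocampal CD11c-negative cells, against 704 and 256 counts in Cst7-zero cells (adjusted p = 0.0456 in cortex and 0.024 in hippocampus). With 1 sum left out in turn the cortical call was lost in 12 of 15 fits and the hippocampal one in 5 of 15, with adjusted p up to 0.145 (without CD11c-negative cortex 3) and 0.0879 (without CD11c-negative hippocampus 1). Lpl was at 579.6, 670.0, 592 and 706 CPM in Cst7-zero cells of cortex against 102, 107, 20.4 and 18.4 CPM (log2 3.29 ± 0.72, adjusted p = 0.0515; 0.0335 with RLE size factors and 0.0105 to 0.158 with 1 sum left out). In hippocampus it was at 961, 729 and 619 CPM against 1.13, 3.36, 15.3 and 0.843 CPM (log2 7.06 ± 0.88, adjusted p = 0.000854; 67 counts in CD11c-negative cells), and the groups do not overlap in either region. Gas7, an actin-associated gene, rose in hippocampus from 5 counts in all CD11c-negative cells to 390 (adjusted p = 0.000854).

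Itgax itself did not pass edgeR's test in either region. It was at 101 ± 59.2 CPM in Cst7-zero and 1.25 ± 1.94 CPM in CD11c-negative cells of cortex (log2 6.35 ± 2.03, adjusted p = 0.247; 0.00418 with DESeq2 and 0.0241 with limma-voom). In hippocampus it was at 18.8 ± 15.1 and 8.88 ± 15.6 CPM (log2 0.99 ± 1.73, adjusted p = 0.909), where CD11c-negative replicate 2 alone had 32.2 CPM. In all, the 80 Cst7-zero cells of hippocampus, sorted by CD11c protein, held 21 counts of Itgax.

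On the homeostatic side the Cst7-zero cells were low. Tmem119 was at 1836, 1966, 1699 and 1374 CPM in CD11c-negative cells of cortex and at 2298, 2513, 2537 and 2779.8 CPM in hippocampus. Every Cst7-zero sum, from 279.9 to 755 CPM, lay below all of these. The log2 difference was -2.37 ± 0.19 in cortex (adjusted p = 3e-06) and -1.96 ± 0.21 in hippocampus (adjusted p = 0.000266); the hippocampal call was lost with limma-voom (adjusted p = 0.256).

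P2ry12 fell in cortex from 1918 ± 272 to 796 ± 186 CPM (log2 -1.34 ± 0.20, adjusted p = 0.00225; 0.0843 with limma-voom). In hippocampus it was at 2470 ± 297 and 1262 ± 186 CPM, without overlap, but its difference of -1.02 ± 0.21 did not pass (adjusted p = 0.0577; 0.0137 at 5000 counts per cell and 0.00358 with DESeq2). Cx3cr1 fell in cortex from 1328 ± 174 to 555 ± 128.6 CPM (log2 -1.33 ± 0.19, adjusted p = 0.00214) and was at 2225 ± 146 and 1226 ± 142 CPM in hippocampus (log2 -0.91 ± 0.21, adjusted p = 0.0848). Selplg fell by 0.94 ± 0.15 on the log2 scale in cortex (adjusted p = 0.00443) and by 0.82 ± 0.16 in hippocampus (adjusted p = 0.0456). That hippocampal call was lost in 10 of 15 fits that left out 1 sum, with adjusted p up to 0.0952, and with limma-voom (0.263). Sema4b fell in cortex from 1364 ± 96.3 to 171 ± 74.4 CPM (log2 -3.07 ± 0.49, adjusted p = 0.00443), with -1.86 ± 0.52 in hippocampus (adjusted p = 0.169). Rab3il1, a regulator of Rab GTPases, fell in cortex from 309 ± 51.2 to 45 ± 27 CPM (log2 -2.86 ± 0.46, adjusted p = 0.00556). The gate effects of the 2 regions were not tested against each other.

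**Figure D4:**
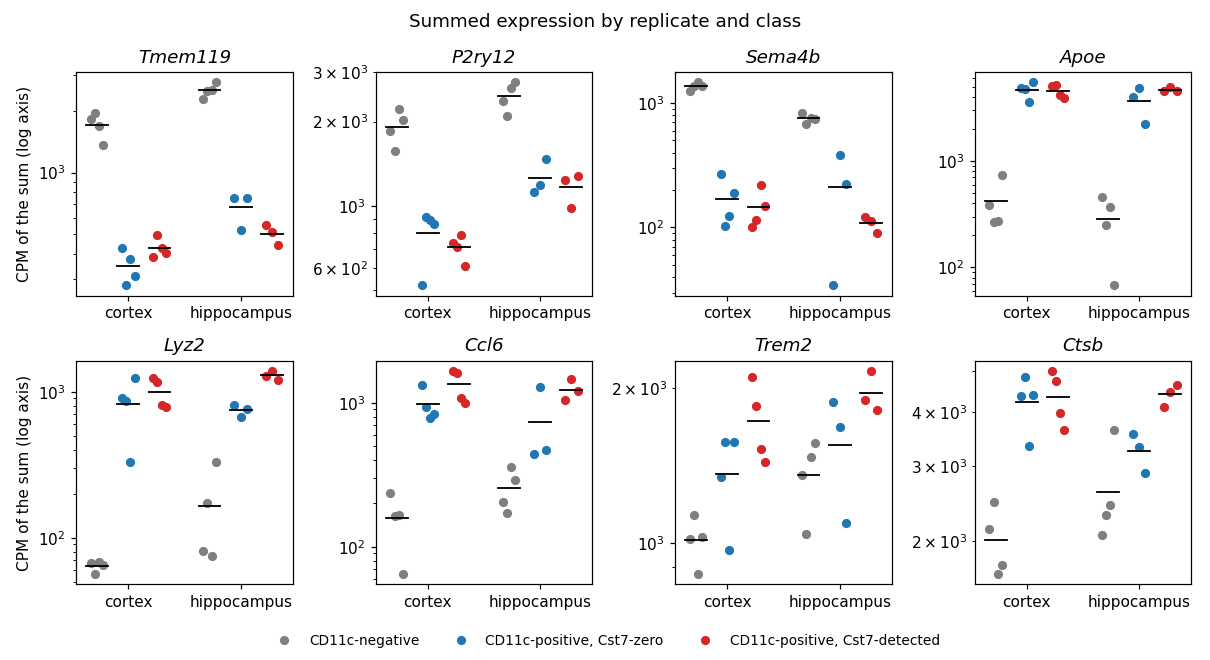
CPM of summed counts (log axis) for 8 genes, 1 point per replicate, in CD11c-negative, Cst7-zero and Cst7-detected cells of cortex and hippocampus; the black line is the mean. For Tmem119 and Apoe the Cst7-zero points lie with the Cst7-detected points and apart from the CD11c-negative ones (279.9 to 755 CPM against 1374 to 2779.8 CPM for Tmem119).

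By list, 6 of 23 homeostatic genes fell and 0 rose in cortex (median log2 difference -0.94 against -0.13 over all genes tested), and 2 of 23 fell in hippocampus (median -0.95 against -0.39). Of the 16 tested DAM genes of low baseline, 4 rose in cortex (median 3.34) and 3 in hippocampus (median 3.70), and 0 fell. Of the 20 broader DAM genes 5 rose in cortex (median 1.05) and 1 in hippocampus (median 0.66). Among lipid-handling genes, of which several are also on the DAM lists, 2 of 14 rose in cortex (median 1.75) and 3 of 14 in hippocampus (median 1.37). Among 25 lysosomal genes 1 rose in cortex (median 0.41) and 0 in hippocampus (median 0.04). For comparison, 11 of the 1875 genes of at least 100 CPM rose and 35 fell in cortex, and 7 of 1831 rose and 7 fell in hippocampus. The lists were drawn with results of these data known, so their direction is no independent evidence.

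Several further genes called against CD11c-negative cells had few or no counts in the lower group of that region, and none was called in both regions. The cell adhesion gene Ceacam1 was at 0 and 54.1 CPM in Cst7-zero and CD11c-negative cells of cortex, and at 87.7 and 46.9 CPM in hippocampus. Metap1d was at 1.07 and 76.3 CPM in cortex, and 104 and 22.9 CPM in hippocampus, and Med4 at 64.4 and 0.116 CPM in cortex, with 1.88 and 17.9 CPM in hippocampus. In hippocampus the interferon-induced Ifi27l2a had 281 counts and Nceh1 had 58 in Cst7-zero cells against 0 of each in CD11c-negative cells, while Abcf2 and Med7 had 0 counts in Cst7-zero and 919 and 649 in CD11c-negative cells.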

How the data were processed

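The 36 libraries hold one raw count per gene and cell barcode as deposited. The submitters' processing notes name HISAT2 2.1.0 (build GRCm38, mm10), featureCounts 1.6.0 and UMI-tools 0.5.3. No source used here gives whether reads sharing a molecular identifier were merged: 27.0% of non-zero entries are 1, and 35.9% are 20 or more and hold 88.8% of counts, so intervals cover counting error only. All 26348 gene identifiers matched GENCODE vM21. Of 2660 barcodes 2657 had at least 200 genes (median 19482 counts). The 83 barcode sequences are well barcodes, 82 of them used in more than 1 library. Doublets were not called, and the deepest CD11c-positive cell has 302384 counts. Further allele names and 1 of the 28 genes compared per cell are not reported here.

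Counts were summed per replicate and class and tested with edgeR 4.0.16 (R 4.3.3) by quasi-likelihood, with TMM scaling, filterByExpr and Benjamini-Hochberg adjustment at 0.05. The class fit has the replicate as a block, since both classes come from the same libraries; the deviations of same-numbered sums correlated by 0.001 to 0.126 over 1846 genes of at least 100 CPM. The comparison with CD11c-negative cells has no block. DESeq2 1.42.0, limma 3.58.1 (voom), other scalings, thresholds, depths and left-out sums were alternatives. Thinning drew counts without replacement. Per-cell shares were compared by exact sign-flip permutation over 7 pairs (Python 3.11.15, scipy 1.17.1). Scripts were tested on simulated data. The simulated sums had less spread than the real ones, whose common biological coefficient of variation was 0.964 in the class fit and 1.35 in the CD11c-negative comparison. Power and error rate at the real spread were not tested.

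The cells, gene lists and tests were chosen with earlier results of these data known. Named genes are Tmem119, P2ry12, Itgax and Apoe, the genes of largest change past the threshold with at least 50 CPM, or else the 5 of smallest p in a direction, up to 4 abundant members and 2 of smallest p of each list, and the 28 genes of the per-cell comparison. Not every gene so chosen is printed.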

Additional observations from a re-analysis of the deposited data

Results flagged for a closer look

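Within groups of 4 sums, the highest or lowest was set against the others by Dixon's criterion. Of 94 groups tested 11 had a sum far from the rest, where chance alone gives about 1 in 20. In Cst7-zero cells of cortex these were P2ry12 at 519 CPM in replicate 1 (the other 3 at 864 to 912), Fcrls at 981 CPM, Npc2 at 1386 CPM and Grn at 464 CPM. In Cst7-detected cells of cortex it was H2-Aa at 17.3 CPM. In CD11c-negative cells of cortex these were Igf1 at 6.13 CPM and Cx3cr1 at 1068 CPM. In CD11c-negative cells of hippocampus they were Itgax at 32.2 CPM in replicate 2, Cd63 at 481 CPM, Gas7 at 1.34 CPM and Igf1 at 0.843 CPM, the last from 1 count.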

How the results depend on the processing

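The share of CD11c-positive cells without Cst7 was 50.9% at 2000 counts, 43.1% at 5000 and 52.3% with 5 counts as the threshold, and 26.4 to 31.4% with 1 replicate left out. The regional difference turned to 5.22 points at 2000 counts and 10.1 with 5 counts, and ran from -15.0 to -5.60 with 1 replicate left out.

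Between Cst7-zero and Cst7-detected cells, DESeq2 called 36 genes higher and 143 lower, and 49 for a dependence on region. Without the filter on low counts 3 genes were lower, and 2 with limma-voom. Without the replicate block or with any replicate left out, 0 were called. Thinning cells to 2000, 5000 or 10000 counts also gave 0 in either direction, as did setting the classes after thinning to 5000. Tmem119 changed sign without marker-bearing cells (-0.0799), in cortex alone (-0.24) and in the libraries tagged transgenic (-0.31), with -0.0570 to 0.213 over left-out replicates. Apoe changed sign with RLE (0.0344), DESeq2 (0.0367), limma-voom (0.0268), 2000 counts (0.00601), cortex alone (0.0828) and the tagged libraries (0.13), with -0.189 to 0.0423 over left-out replicates.

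Against CD11c-negative cells of cortex, genes higher were 20 with RLE, 44 without the filter, 129 with DESeq2, 111 with limma-voom, 50 at 5000 counts, 24 without marker-bearing cells and 37 with cortex fitted alone. Genes lower were 72 without the filter, 183 with DESeq2, 91 with limma-voom and 59 at 5000 counts. With the replicate number as a block in cortex alone, 13 genes were higher and 28 lower. There CD11c-negative and Cst7-zero sums of the same number share an animal name and a set number in their titles. The deviations of same-numbered sums correlated by 0.016 to 0.033, in 2 of 4 numbers more than with any other number. In hippocampus 71 were higher without the filter and 142 with DESeq2, and 86 were lower without the filter, 425 with DESeq2, 0 with limma-voom and 27 at 5000 counts. With 1 sum left out the counts ran from 6 to 20 higher and 16 to 71 lower in cortex and from 4 to 15 and 1 to 34 in hippocampus. Genes that missed the threshold in edgeR's test but passed under at least 1 alternative were Lpl and Itgax in cortex and Lyz2, Ccl6, Npc2, P2ry12, Cx3cr1 and Sema4b in hippocampus, all of them with DESeq2. Without Cst7-zero hippocampus 2-3 they were 20 and 71 in cortex and 13 and 34 in hippocampus, and without CD11c-negative hippocampus 1, 2 or 3 the hippocampal count of lower genes was 1.

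Of the 28 per-cell shares 9 passed at 5000 counts, and 0 at 2000, at 10000, without thinning or with any replicate left out. With 6 pairs 18 genes would have to reach the smallest p (0.0312), and 9 to 11 did; all 9 kept a lower mean share in every such setting. Differences that changed sign were P2ry12 (0.106 points) and Csf1r (0.416) at 2000 counts, Cx3cr1 (-1.40) and Sema4b (-0.125) without thinning, and Spp1 at 10000 (-0.343) and without thinning (-0.0849). Over left-out replicates, Ctsc ran from -5.67 to 0.0286 points, Cx3cr1 from -1.06 to 2.82, Gpnmb from -0.172 to 0.301, Spp1 from -0.463 to 1.30 and Tmem119 from -3.24 to 1.86. The cause of these changes was not tested. The smallest Cst7-zero sum held 253138 counts. Whether the depth of the sums sets the number of class calls was not tested beyond thinning the cells.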
